A study of Homo sapiens with 6 samples.

Results

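KISS1 encodes the precursor of the kisspeptins, and is 1 of the 2462 genes in the deposited table that sets the bladder cancer line T24 against its drug-resistant strain T24DDP. It was selected on its own values in this comparison: at most 1 read in each T24 library and 222 or more in each T24DDP library. The difference between the strains is therefore given as a description, without a test. T24 is an established human line from a bladder carcinoma. T24DDP, called T24-R in the paper, is a strain grown from it under rising doses of gemcitabine and cisplatin, while the design text in the labels speaks of a single drug. Each strain has 3 RNA sequencing libraries, and the labels name no treatment of the cells at harvest. T24DDP is a single derived strain, so what belongs to drug resistance and what belongs to this strain alone cannot be told apart. The labels do not say that the replicates came from separate cultures. The paper states in general that its experiments were repeated independently at least 3 times, without naming these libraries. How the libraries were replicated is thus not described, and p-values measure only the spread between them.

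The KISS1 precursor is cut at paired basic residues by proprotein convertases and amidated at its end, which yields kisspeptins of several lengths that share the same carboxy-terminal residues. These bind KISS1R, a receptor coupled to Gq proteins, phospholipase C and calcium release. KISS1 was first described as a suppressor of metastasis in melanoma cells. It is best known in hypothalamic neurons that drive the release of gonadotropin-releasing hormone, and in placental trophoblast.

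The table gives KISS1 (ENSG00000170498) on the minus strand of chromosome 1 at chr1:204190341-204196486 (GRCh38), with a length of 709 bases. GENCODE version 44 holds 1 transcript of 714 bases in 3 exons, with 138 codons between a 5′ untranslated region of 154 bases and a 3′ untranslated region of 143 bases. Exon 3 holds the whole stretch that is read into the longest kisspeptin, codons 68 to 121. The coding stretch is shown because it is the part of the transcript that becomes the hormone, with the 10 codons of the shortest active form, kisspeptin-10, in capitals (chr1:204190538-204190699, minus strand, read from GRCh38).

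kisspeptin coding stretch: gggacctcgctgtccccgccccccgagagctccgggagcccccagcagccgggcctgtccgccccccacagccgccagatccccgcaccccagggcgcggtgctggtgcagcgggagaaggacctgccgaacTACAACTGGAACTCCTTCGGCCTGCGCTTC

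The stretch is rich in G and C, as is the whole transcript, at 65.7%. The 250 bases before the start of transcription (chr1:204196492-204196741, minus strand, from RefSeq on GRCh38) are shown because the transcript was read almost only in T24DDP. Capitals mark a GC box (GGGCGG) and a pair of overlapping TATA box matches (TATAAA on one strand and on the other).

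KISS1 upstream 250 bases: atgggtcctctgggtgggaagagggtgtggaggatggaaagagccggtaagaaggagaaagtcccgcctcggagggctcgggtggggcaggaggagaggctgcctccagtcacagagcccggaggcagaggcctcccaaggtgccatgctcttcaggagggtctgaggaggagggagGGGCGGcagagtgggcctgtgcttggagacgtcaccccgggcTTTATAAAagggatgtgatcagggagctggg

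The TATA box letters on the KISS1 strand began 29 bases before the start, and the match on the other strand began 31 bases before it. Of 35116 RefSeq promoters of the same length, 10.7% held TATAAA on either strand. The GC box began 73 bases before the start, and 42.6% of promoters held one on either strand. The 250 bases held 8 CpG pairs, against a median of 11 over all promoters. These are matches of letters and say nothing of which factor binds there.

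KISS1 was close to undetected in T24 and well covered in T24DDP. Its scaled count, which is the read count divided by the size factor of the library, was 1.06, 1.02 and 0 in T24 replicates 1, 2 and 3. In T24DDP replicates 1, 2 and 3 it was 556, 480 and 217. All T24DDP libraries lay far above all T24 libraries, and T24DDP replicate 3 lay well below its own pair of replicates.

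**Figure D1:**
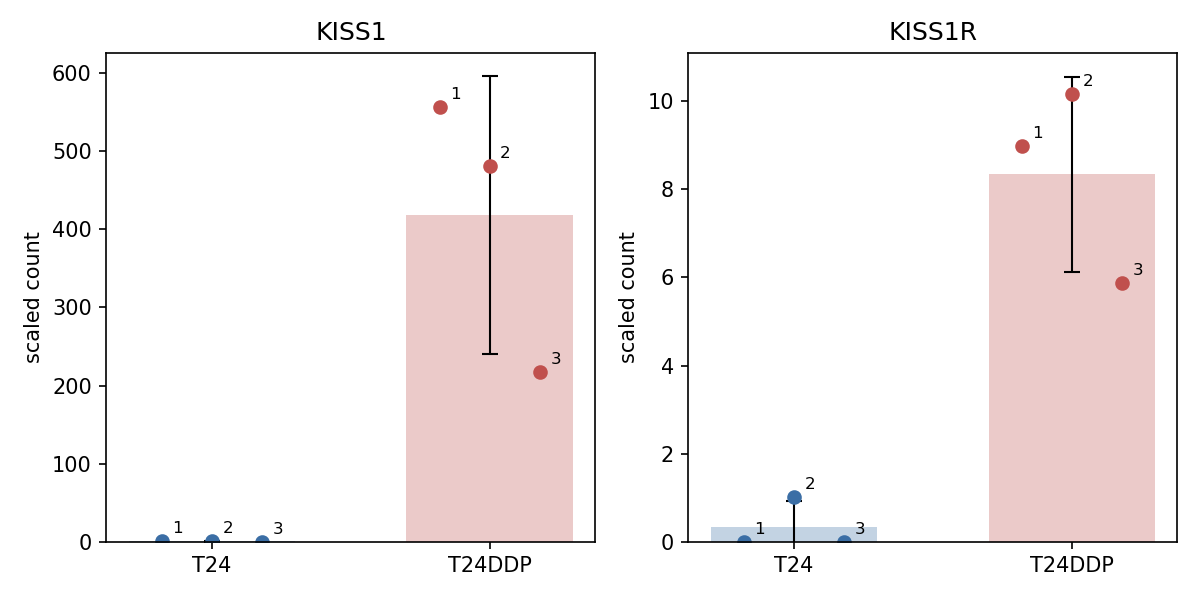
Scaled count (linear axis from 0) of KISS1 and of its receptor KISS1R in each library, with replicate numbers beside the points, bars at the group mean and error bars of 1 SD (n = 3). The T24DDP points of KISS1 lie at 556, 480 and 217 and the T24 points at or near 0, while KISS1R reaches at most 10.2.

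The means were 0.695 ± 0.603 in T24 and 418 ± 178 in T24DDP (SD, n = 3). They rest on 1, 1 and 0 reads in T24. In T24DDP they rest on 557 reads (exact Poisson 95% interval 512 to 605), 520 reads (476 to 567) and 222 reads (194 to 253). Summed over libraries, 1299 reads in T24DDP stand against 2 in T24. Scaled for depth, the ratio is 617, with an exact 95% interval of 171 to 5102 that covers counting error only. With so few reads in T24 the size of the fold is poorly known. The interval leaves out the spread between libraries and the choice of scaling. On the log2(scaled count + 1) scale the difference was 7.91 (SE 0.43), a value that understates the ratio because of the added 1.

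Among the listed genes, KISS1 had the second largest log2 difference in the direction of T24DDP (rank 2 of 2462), which is the comparison it was chosen from. By its mean level in T24DDP it ranked 476, and by level per kilobase of transcript it ranked 92, at 589 scaled counts per kilobase against a median of 21.0 over the listed genes. A short transcript thus carried a high density of reads, as 5.08% of the listed genes are shorter. In T24 it ranked 2252 by mean level.

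None of the exonic bases of KISS1 overlapped another annotated gene (0 bases), and 0 of its 684 stretches of 31 bases occurred in the transcripts of other genes. The nearest listed gene, GOLT1A, lies 1671 bases from KISS1 in GENCODE. The strand used in counting is not given in the sources used here.

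The 3 T24DDP libraries differed more in KISS1 than in most genes of similar level. The coefficient of variation of KISS1 was 42.5%, the ninth highest (rank 9) of the 511 listed genes with a T24DDP mean within 2-fold of its own, whose median was 12.8%. Replicate 3 stood at 0.420 of the mean of replicates 1 and 2. Of the 1426 listed genes with a T24DDP mean of at least 50, 22 were as low or lower in replicate 3 (1.54%), KISS1 included, and the median ratio was 0.977. The Poisson interval of replicate 3, 190 to 248 in scaled counts, did not reach those of replicate 1 (511 to 604) or replicate 2 (440 to 523), so the gap was wider than these intervals, which cover counting error and not the spread between libraries. The spread of KISS1 among these libraries was known when it was chosen, so it is a description too. Without replicate 3 the coefficient of variation was 10.3%, and the log2 difference between the strains was 8.33.

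Replicate 3 of T24DDP stood apart in other listed genes too. The mean chi-square per gene was 71.0 and 72.5 for replicate 3 against replicates 1 and 2, and 1.84 between replicates 1 and 2. The medians were 2.82, 2.92 and 0.732, so the means were raised by a part of the genes. Between the T24 replicates the means were 4.13, 9.19 and 3.44. The mitochondrial ribosomal RNA gene MT-RNR2 took 22.3% of its reads on listed genes, against 9.36% and 9.33% in replicates 1 and 2. Scaled instead to the reads on listed genes of the nucleus alone, a setting chosen after the data were seen, KISS1 stood at 572, 498 and 226. This rescaling changed the values little, and what the mitochondrial share has to do with the KISS1 value was not tested.

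KISS1 is both short and rich in G and C, and the median ratio was lower among genes of each kind. For the 101 genes under 1500 bases the median ratio was 0.710, with 9 at or below KISS1 (8.91%). For the 1325 longer genes it was 0.993, with 13 at or below (0.981%). Genes with at least 60% G and C had a median of 0.814 (n = 274), and the others 1.02 (n = 1147). Among the 21 genes that were both short and rich in G and C, the median was 0.565, and 4 were at or below KISS1, itself counted (19.0%). These bins are descriptions, and what part length, base composition or the state of the RNA has in the KISS1 value was not tested.

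**Figure D2:**
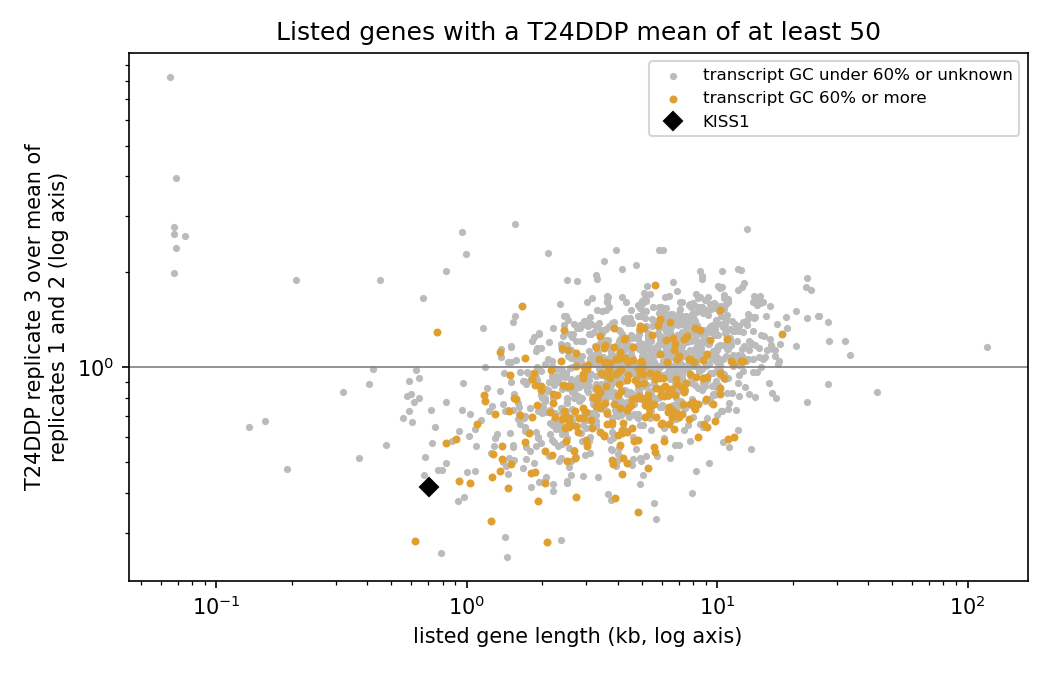
Ratio of T24DDP replicate 3 to the mean of replicates 1 and 2 (log axis) against the listed length in kilobases (log axis) for the 1426 listed genes with a T24DDP mean of at least 50, with genes of at least 60% G and C in orange. KISS1 (black diamond, ratio 0.420) lies among the short genes in the low part of the cloud, and the median of all genes is 0.977.

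The listed genes around KISS1 on chromosome 1 were set beside it. Genes were called at an adjusted p under 0.05 (limma, Benjamini-Hochberg over the table) with an absolute log2 fold change above 1. The authors chose the table by thresholds on the same comparison, so every listed neighbour had already passed a selection for change, and a call repeats it: 98.3% of all listed genes were called, 69.2% higher and 29.2% lower in T24DDP. Within 2 Mb of KISS1 there were 5 listed genes, 4 higher and 1 lower, with a median log2 fold change of 2.25 against 1.41 over all listed genes and 1.15 over the 218 on chromosome 1. With TMM factors computed on the table, which move the median over all listed genes by -1.32, 2 of the neighbours were called higher. The same factors left 584 of the 2462 listed genes called higher. The window holds 59 other protein-coding genes in GENCODE, of which 4 are listed (BLACAT1, noncoding in the table, among them), and a gene outside the table may have changed by less than the threshold or may be too low to test.

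GOLT1A, which encodes a Golgi transport protein and is read from the same strand as KISS1, lies closest. Its scaled counts were 6.39, 10.2 and 5.81 in T24 and 36.9, 51.7 and 29.4 in T24DDP, a log2 fold change of 2.25 (SE 0.33, limma adjusted p = 0.000194), and it was not called with TMM factors (0.99). The groups did not overlap, and replicate 3 of T24DDP was the lowest of its group here too, at 0.663 of the mean of replicates 1 and 2. Of its 999 stretches of 31 bases, 0 occurred in other genes. PLEKHA6, the next gene along and also on the minus strand, encodes a pleckstrin homology domain protein of cell junctions and went the other way. It stood at 1302, 1322 and 1442 in T24 and 586, 598 and 657 in T24DDP (log2 fold change -1.14, SE 0.10). The nearest base of PLEKHA6 lies 22.4 kb from KISS1.

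CDK18, a cyclin-dependent kinase gene 1308 kb from KISS1, had scaled counts of 10.6, 9.19 and 6.77 in T24 and 58.9, 64.7 and 44.1 in T24DDP, a log2 fold change of 2.53 (SE 0.28). BLACAT1, a long noncoding RNA gene 1238 kb away, rose from 13.8, 32.7 and 26.1 to 48.9, 60.04 and 40.1 (log2 fold change 1.07, SE 0.34, limma adjusted p = 0.0123). Its call was lost without T24 replicate 1 (0.73), without T24DDP replicate 2 (0.93) and with a pseudocount of 10 (0.83), and its direction turned with TMM factors (-0.24). On the far side of KISS1, the transcribed processed pseudogene AC098934.2 at 1315 kb rose by 2.51 (SE 0.37). Of its stretches of 31 bases, 7.46% also occur in other genes, so its count is uncertain. The scaled counts of the T24 and T24DDP libraries did not overlap for any of the 5 neighbours. The same held for KISS1 and for the listed genes of every list below. The table was selected for change, and its share of genes without overlap was not computed. The lack of overlap is therefore not read as a trait of these genes. Within 5 Mb 8 listed genes were higher and 8 lower, and within 1 Mb 1 was higher and 1 lower. Of the 218 listed genes on chromosome 1, 123 were called higher and 92 lower.

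**Figure D3:**
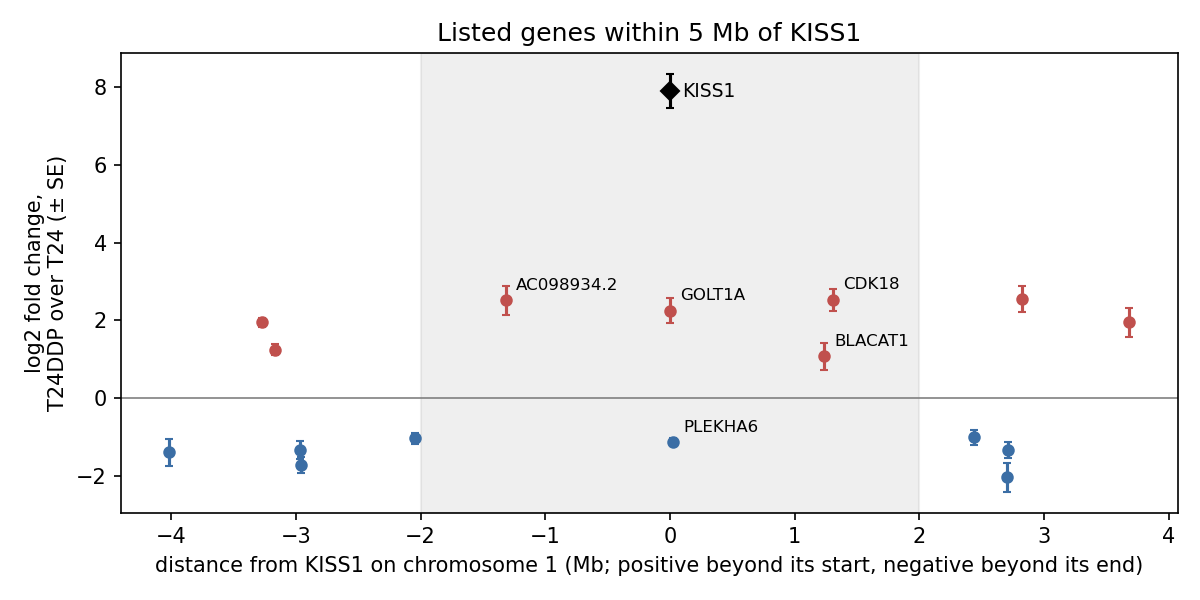
Log2 fold change of T24DDP over T24 (± SE, vertical axis) of KISS1 (black diamond) and of the listed genes within 5 Mb, against their distance from it in Mb (horizontal axis), with genes called higher in red, genes called lower in blue and the 2 Mb window shaded. KISS1 at 7.91 stands far above its neighbours, of which 8 are higher and 8 lower.

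Of the 50 genes of the kisspeptin system, 6 were listed: 4 were called higher, 1 lower and 1 was not called. Over the whole table, 69.2% were called higher and 29.2% lower. The median log2 fold change of the 6 was 1.45 against 1.41 over all listed genes. With TMM factors 2 of the 6 were called higher, beside 584 of the 2462 listed genes. The only gene on the receptor list, KISS1R (ENSG00000116014, chr19:917287-921015), was read at low level. It had 0, 1 and 0 reads in T24 and 9, 11 and 6 in T24DDP, or scaled counts of 8.98, 10.2 and 5.88 in T24DDP. The groups did not overlap, and the depth-scaled ratio was 24.7 with an exact 95% interval of 4.06 to 1013. Its log2 fold change was 2.86 (SE 0.39, limma adjusted p = 0.000127), and it was not called with a pseudocount of 10 (0.82). KISS1R is listed because it passed the authors' thresholds on this same comparison, so its adjusted p repeats that selection. Per kilobase, KISS1R stood at 4.96 scaled counts in T24DDP and KISS1 at 589, so ligand reads far outnumbered receptor reads. T24DDP replicate 3 was low for the receptor as well, at 0.614 of the mean of the other two.

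Among the 8 genes that process peptide precursors, 2 were listed, both proprotein convertases, and they moved in opposite directions. PCSK5 had 2, 0 and 1 reads in T24 and scaled counts of 84.8, 104 and 92.0 in T24DDP, a ratio of 92.5 with an exact 95% interval of 31.3 to 451. PCSK6 stood at 79.8, 64.4 and 84.2 in T24 and fell to 17.0, 11.1 and 15.7 in T24DDP (log2 fold change -2.32, SE 0.25). The groups overlapped for neither gene. Whether either convertase cuts the KISS1 precursor in these cells was not measured. FURIN, the convertase usually named for this cut, is not listed.

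Of 5 metalloproteinases known to cleave kisspeptin, MMP16 alone was listed. Its scaled counts were 129, 115 and 131 in T24 and 209, 204 and 361 in T24DDP. Its log2 fold change of 0.99 (SE 0.22) lay just under the threshold of 1, while edgeR gave 1.04 and called it and TMM factors turned it to -0.36. Its replicate 3 was high, at 1.75 times the mean of replicates 1 and 2. Of 20 genes of receptor signalling 1 was listed, the calcium release channel gene ITPR1, at 94.7 to 126 in T24 and 232 to 287 in T24DDP (log2 fold change 1.19, SE 0.16, but -0.15 with TMM factors). Of 8 genes placed upstream of KISS1 in other systems 1 was listed. This was TXNIP, which encodes a thioredoxin-interacting protein, at 66.0, 91.9 and 86.1 in T24 and 276, 285 and 235 in T24DDP (log2 fold change 1.70, SE 0.17, and 0.36, not called, with TMM factors). None of the 8 genes of related RFamide peptides and their receptors was listed.

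KISS1 belongs to a family of genes named for suppressing metastasis rather than for a shared structure. Of 29 others, 8 were listed and all 8 were called higher in T24DDP, where 69.2% of the table was. TXNIP, given above among the genes placed upstream of KISS1, is among the 8 and counts in both lists. The median of the 8 was 1.59 against 1.41 over the table. With TMM factors 3 of the 8 were called higher, beside 584 of the 2462 listed genes. AKAP12, NDRG1 and TPM1 turned to -0.11, -0.21 and -0.23. These counts say nothing of the members that are outside the table.

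CADM1, a cell adhesion molecule of the immunoglobulin superfamily, had the largest log2 fold change of these, 5.81 (SE 0.24). Its scaled counts were 6.39, 4.09 and 3.87 in T24 and 329, 273 and 354 in T24DDP. Unlike KISS1, it was even across T24DDP, with replicate 3 at 1.17 times the mean of replicates 1 and 2. CD82, a tetraspanin of the cell surface, stood at 156, 165 and 115 in T24 and 1230, 1155 and 979 in T24DDP (log2 fold change 2.95, SE 0.16). GAS1, a membrane protein linked to growth arrest, had low and uneven counts in T24 (8.52, 1.02 and 11.6) and 53.9, 64.7 and 63.7 in T24DDP (3.30, SE 0.62). ARHGDIB, which encodes a GDP dissociation inhibitor of small GTPases, rose by 1.48 on the log2 scale (SE 0.10), from 345 to 350 in T24 to 905 to 1015 in T24DDP, and by 0.13, not called, with TMM factors. The scaffold protein gene AKAP12 rose by 1.24, the stress response gene NDRG1 by 1.15 and the tropomyosin gene TPM1 by 1.12 with the deposited factors. T24 and T24DDP libraries overlapped for none of the 8, as for the listed genes of the other lists given here. The table was selected for change, and its share of genes without overlap was not computed, so this is not read as a trait of the 8.

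**Figure D4:**
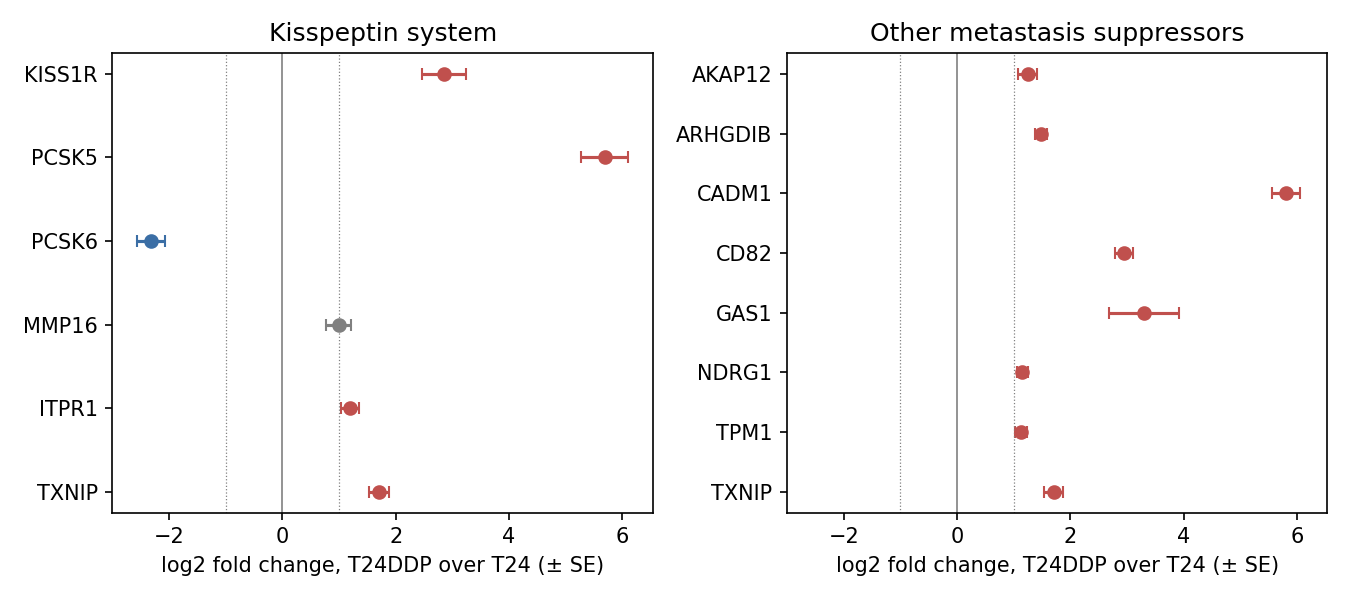
Log2 fold change of T24DDP over T24 (± SE, horizontal axis) of the listed members of the kisspeptin system (left) and of the other metastasis suppressors (right), with called higher in red, called lower in blue and not called in grey, and dotted lines at the threshold of 1 in each direction. PCSK6 at -2.32 is the only member below 0, and CADM1 at 5.81 and PCSK5 at 5.69 lie farthest to the right.

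Markers of the cells in which KISS1 is best known were mostly outside the table. Of 21 trophoblast markers 1 was listed, PSG4, a pregnancy-specific glycoprotein gene, at 561 to 593 in T24 and 124 to 154 in T24DDP (log2 fold change -2.02, SE 0.13). Of 8 markers of hypothalamic kisspeptin neurons 1 was listed, the nuclear receptor gene NR5A2, which fell by 1.40 on the log2 scale (SE 0.34), a call lost with a pseudocount of 10 (-0.90). Of 12 retina markers 0 were listed. As the table holds only genes that differed between the strains, a marker outside it may still be expressed in both, and these lists do not check the tissue.

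Of 20 urothelial and epithelial markers 3 were listed. The keratin gene KRT19 had 203, 171 and 148 scaled counts in T24 and 0, 0 and 1 reads in T24DDP, and PPARG, a nuclear receptor of urothelial differentiation, went from 1219 to 1377 in T24 to 363 to 434 in T24DDP. The transcription factor gene GATA3 rose from 0 to 3.06 up to 35.9 to 48.0. Of 10 fibroblast markers COL1A1 (log2 fold change 2.49, SE 0.29) and ACTA2 (1.29, SE 0.21, but -0.04 with TMM factors) were listed and higher, and of 10 immune and endothelial markers PECAM1 (3.69, SE 0.56). COL1A1 was low in T24DDP replicate 3, at 0.675 of the mean of replicates 1 and 2, and PECAM1 high, at 1.28. What these markers have to do with the KISS1 value was not tested.

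The listed genes whose profile over the 6 libraries was most like that of KISS1 were found by the root mean square difference of centred log2(scaled count + 1) values, among the 2306 genes whose mean reached 10 in either strain. They were GPC4 (0.50), ZNF521 (0.59), AFAP1L2 (0.63), TLE2 (0.79) and NGFR (0.80), against a median difference of 3.34. GPC4 encodes a cell surface heparan sulfate proteoglycan, and it had 0 reads in all T24 libraries and 243, 262 and 222 scaled counts in T24DDP. Set against a floor of 3 reads per library, GPC4 was at least 79.5-fold higher in T24DDP. ZNF521, a zinc finger gene, was at least 76.7-fold higher by the same floor, at 228, 221 and 255. AFAP1L2, an adaptor protein gene, was at least 47.7-fold higher, at 150, 147 and 140.

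TLE2, a gene of a transcriptional corepressor, had 1 read in each T24 library and scaled counts of 208, 230 and 232 in T24DDP, a ratio of 220 (exact 95% interval 74.9 to 1069). NGFR, the gene of the low-affinity neurotrophin receptor, had 0 reads in T24 and 117, 97.9 and 66.6 scaled counts in T24DDP, at least 30.7-fold higher. Of the 5, NGFR was also lowest in replicate 3, at 0.620 of the mean of replicates 1 and 2, whereas ZNF521 was the highest of the 5 there, at 1.14. The likeness rests mainly on the gap between the strains. With a pseudocount of 10, which weighs the low T24 values less, 1 of the 5 remained among the 5 nearest.

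In all, 324 listed genes had at most 3 reads in every T24 library, and 10 of these had a T24DDP mean of at least 100. KISS1 had the highest mean of the 10 and the lowest value of replicate 3 relative to replicates 1 and 2. Its level and its spread were both known when it was chosen, so these places are a description only.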

How the data were processed

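RNA of T24 and T24DDP, 3 libraries each, was sequenced by the authors. The labels' protocol names retinas, another kit and a mouse build, whereas the paper and the human GRCh38 coordinates of the table describe T24, and the paper was followed. The authors aligned reads with HISAT2, counted them with featureCounts and tested with DESeq2. The annotation version and the strand setting are not given in the sources used here. The signal values deposited by the authors are read counts that were each divided by the size factor of the library. Group means, log2 fold changes and p-values of the authors' own comparison, also in the table, were not used. The table lists only genes past the authors' thresholds, so a gene outside it is called not listed.

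All values (100%) were whole multiples of 1 step within 0.1, so reads and size factors were recovered. Reads on listed genes ranged from 1170731 to 1411926, and size factors from 0.939 to 1.08. Total depth is unknown. Reads carry no molecular identifiers, so intervals (exact, 95%) cover counting error only.

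limma 3.58.1 (trend) in R 4.3.3 was fitted on log2(value + 1) of all 2462 genes with Benjamini-Hochberg adjustment, two-sided. Alternatives were TMM factors, no trend, a mean of at least 10, pseudocounts of 0.1 and 10, a replicate block, leaving out each library, edgeR 4.0.16 and DESeq2 1.42.0 on recovered reads, and other windows. Scripts were tested on simulated data. With 3 against 3 libraries a two-sided exact permutation test cannot go below 0.1, so none is given. Genes named are KISS1, listed neighbours within 2 Mb, listed members of the kisspeptin, metastasis suppressor and marker lists, and the 5 most like KISS1. FURIN and MT-RNR2 were named outside this rule, after values were seen. The gene and the lists were chosen with earlier results of these data known. Motifs were searched in RefSeq promoter sequences on GRCh38, and 31-base stretches in GENCODE version 44 transcripts.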

Additional observations from a re-analysis of the deposited data

How the results depend on the processing

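The KISS1 difference kept its direction under all alternatives run. The gene was chosen on this gap, of 2 reads in T24 against 1299 in T24DDP, so that outcome was fixed beforehand. The KISS1 log2 value of 7.91 was 6.98 with TMM factors, 9.58 with a pseudocount of 0.1, 5.22 with a pseudocount of 10, 9.03 with edgeR and 9.27 with DESeq2. With only 2 reads in T24, it follows the constant added to low values. TMM factors, which take most listed genes as unchanged although the table holds only genes past a threshold, moved the counts called higher to 584 of all listed genes (from 1703), 2 neighbours, 2 kisspeptin system genes and 3 metastasis suppressors. They reversed BLACAT1 (-0.24), MMP16 (-0.36), ITPR1 (-0.15), AKAP12 (-0.11), NDRG1 (-0.21), TPM1 (-0.23) and ACTA2 (-0.036), and GOLT1A (0.99), TXNIP and ARHGDIB were no longer called. With a pseudocount of 10, BLACAT1 (0.83), KISS1R (0.82) and NR5A2 (-0.90) lost their calls. A window of 1 Mb gave 1 gene higher, and one of 5 Mb gave 8 higher and 8 lower. Leaving out each T24DDP library, the coefficient of variation of KISS1 ran from 10.3% (without replicate 3) to 61.9%, and its rank from the top 1.14% to the top 10.4% of genes compared. The cause was not tested. With a pseudocount of 10, 1 of the 5 most similar genes was shared. MMP16 was called higher with edgeR (1.04), DESeq2 (1.05) and in 4 of the 6 fits that left out a library.

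Whether the replicate numbers pair the samples is not settled by these values. Same-numbered deviations correlated at 0.124, 0.0244 and 0.181, the highest value for each T24 replicate. T24DDP replicate 2, however, correlated better with T24 replicate 1 (0.109) than with T24 replicate 2. The main fit used no pairing. With the replicate number as a block, 1704 genes were called higher and 719 lower, against 1703 and 718, and no named gene changed its call. The 2 reads of KISS1 and the 1 read of KISS1R in T24 limit the precision of their folds.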

Other observations

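Besides KISS1 and the 4 similar genes GPC4, ZNF521, TLE2 and AFAP1L2, 5 more listed genes had at most 3 reads in every T24 library and a T24DDP mean of at least 100. They were named after their values were seen, and they are given as values. ZNF716, ZFP28 and ZNF467 are zinc finger genes with T24DDP means of 139.5, 139.5 and 135.3 scaled counts. KCNK5, a potassium channel gene, had a mean of 124.6, and RORA, a nuclear receptor gene, 103.1. Relative to replicates 1 and 2, replicate 3 of T24DDP stood at 1.63 for ZNF716, 1.37 for ZFP28, 1.11 for ZNF467, 1.03 for KCNK5 and 1.08 for RORA, against 0.420 for KISS1. None of the 10 genes other than KISS1 lies on chromosome 1.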
